A study of Homo sapiens with 8 samples.

Results

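The endoplasmic reticulum (ER) chaperone and oxidative folding genes HSPA5, HSP90B1, CALR, PDIA4, PDIA6, ERO1A (ERO1L in older annotation), DNAJB9, HERPUD1, XBP1 and HYOU1 were followed by name from normoxia to hypoxia. They are 10 of the 14528 named genes in the deposited table and account for 14 of its 24812 listed transcripts. All 10 passed the limit of a mean of 0.5 FPKM, as did 12106 genes in all. FPKM counts the fragments assigned to a transcript scaled by its length and by the mapped fragments of the library, so levels can be compared between genes. Poly(A)-selected RNA was sequenced from SQ20B, an established human head and neck squamous cell carcinoma line. The 4 normoxia samples and the 4 hypoxia samples, the latter kept at 0.5% oxygen for 16 h, were unmodified cells of this 1 line, grown in DMEM with serum. Values are given as 1 pooled FPKM per condition. Values of single samples were not analysed here, so no spread, standard error or test accompanies any difference, and "higher" and "lower" describe the pair of pooled values.

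Proteins that enter the secretory pathway fold in the ER, where the Hsp70 BiP (HSPA5), the Hsp90 GRP94 (HSP90B1) and the lectin chaperone calreticulin (CALR) hold them while disulfide bonds form. Protein disulfide isomerases such as PDIA4 and PDIA6 make and rearrange these bonds, and ERO1 oxidases reoxidise the isomerases by passing electrons to molecular oxygen. When unfolded proteins accumulate, the unfolded protein response raises the transcription of many of these genes through ATF6, through ATF4 and through XBP1, whose mRNA the kinase and nuclease IRE1 (ERN1) splices in the cytoplasm.

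Of the 10 genes, ERO1A was at least 1.5-fold higher in hypoxia, XBP1 was at least 1.5-fold lower, and the other 8 lay between these limits. Of all genes compared, 9.95% were at least 1.5-fold higher and 11.2% at least 1.5-fold lower. In the plot of levels by gene, ERO1A shows the widest gap. The pooled values lay above those in normoxia for 8 of the 10 genes, against 43.6% of all genes. The median log2 change of the 10, taken as the difference of log2(FPKM + 0.1) between hypoxia and normoxia, was 0.27, and that of all genes was -0.07. Scaling both columns to equal FPKM sums, with which 78.8% of the genes past 1.5-fold were higher in place of 46.9%, placed HSPA5 and PDIA4 past the limit as well and XBP1 within it. Centring on the median gene gave 58.6% and quantile normalization 57.8% for that share, and each also placed XBP1 within the limit. Of all genes, 18.3% were past 1.5-fold higher and 4.94% lower with equal sums, 12.4% and 8.76% with centring, and 11.6% and 8.44% with quantile normalization. The median log2 change of all genes was 0.15 with equal sums and 0.015 with quantile normalization. List counts and medians given below for these scalings are to be read beside these values.

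**Figure D1:**
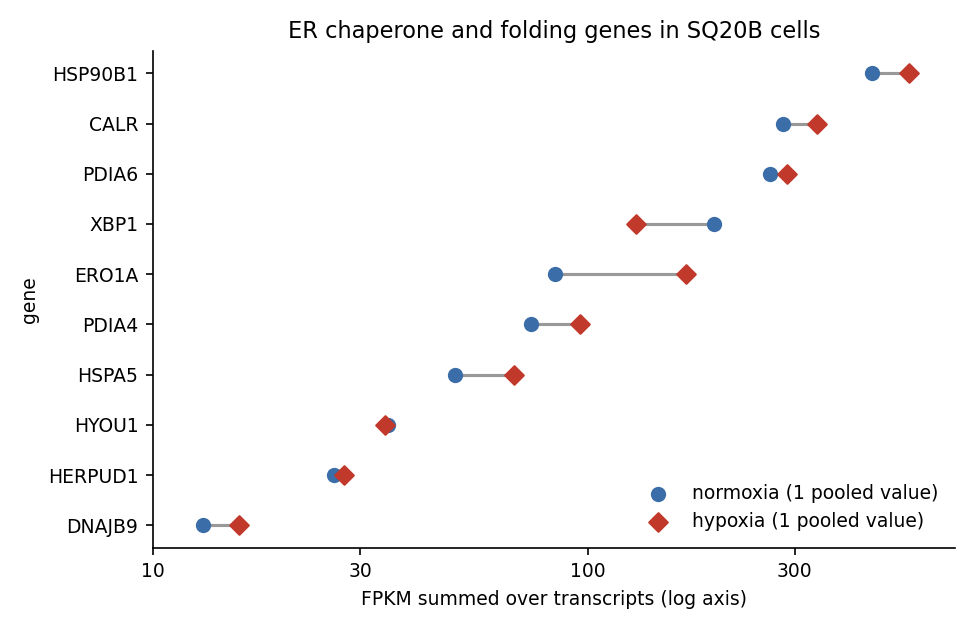
FPKM of the 10 genes in normoxia (circles) and hypoxia (diamonds) on a log axis, each symbol being 1 pooled value and genes being ordered by mean FPKM. ERO1A goes from 84.2 to 169 FPKM and XBP1 from 195 to 129, while HERPUD1 and HYOU1 nearly coincide.

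The FPKM of all listed transcripts summed to 536005 in normoxia and 458431 in hypoxia. Equal sums therefore shift each log2 change upward by 0.23. CA9, a carbonic anhydrase induced by low oxygen, went from 0.694 to 21.6 FPKM, a log2 difference of 4.77. All 13 genes of a hypoxia response list that had a value were at least 1.5-fold higher, with a median log2 change of 2.63. Among them EGLN3 went from 4.38 to 68.1 FPKM (log2 change 3.93), ANKRD37 from 1.27 to 19.7 (3.85), BNIP3 from 68.9 to 490 (2.83) and P4HA1 from 58.6 to 362 (2.63). Of 9 squamous epithelial markers 8 were listed, among them KRT5 at 398 and 442 FPKM and EPCAM at 317 and 233. KRT6A, at 5.10 and 3.26 FPKM (log2 change -0.63), was the 1 marker of these past 1.5-fold lower, and none was past 1.5-fold higher. Their log2 changes lay between -0.63 and 0.43, with 4 above 0 and 4 below. Of 9 markers of leukocytes, endothelium, fibroblasts, liver and muscle, COL3A1 lay at or below 0.107 FPKM, the endothelial cadherin CDH5 was at 4.78 and 2.83 FPKM, and the other 7 were not analysed here. In bulk RNA, a change in the share of cells with a transcript and a change in its amount per cell cannot be told apart.

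ERO1A, the oxidase that keeps the disulfide isomerases oxidised, differed most. Its 1 listed transcript, NM_014584 (chromosome 14 of hg19, 53108605 to 53162419), was at 84.2 FPKM in normoxia and 169 FPKM in hypoxia. The hypoxia value was 2.00-fold the normoxia value, a log2 change of 1.00. At a fold of 2 it was the only one of the 10 genes past the limit, and 3.21% of all genes were at least 2-fold higher and 2.62% at least 2-fold lower. It ranked 388th from the top in log2 change, and 388 genes reached 2-fold, so it was the last of them. With 1 FPKM added in place of 0.1, its log2 change was 0.99 and thus short of 2-fold. By level it moved from rank 1129 to rank 423 among the genes compared. ERO1B, its paralog, was at 6.002 and 6.51 FPKM (log2 change 0.12), so that the ratio of ERO1A to ERO1B went from 14.02 to 25.9.

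In the plot of change against level, ERO1A is the only one of the 10 genes above the upper dashed line, and XBP1 sits on the lower one. ERO1A lay at percentile 96.8 of log2 change among all genes, HSPA5 at 85.2, PDIA4 at 82.1 and XBP1 at 11.0. HSP90B1, CALR and DNAJB9 fell close together at percentiles 77.0, 76.1 and 76.9. PDIA6 at 67.0, HERPUD1 at 62.9 and HYOU1 at 54.5 were nearer to the middle of all genes. The quartiles of all genes lay at -0.36 and 0.24 on this scale.

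**Figure D2:**
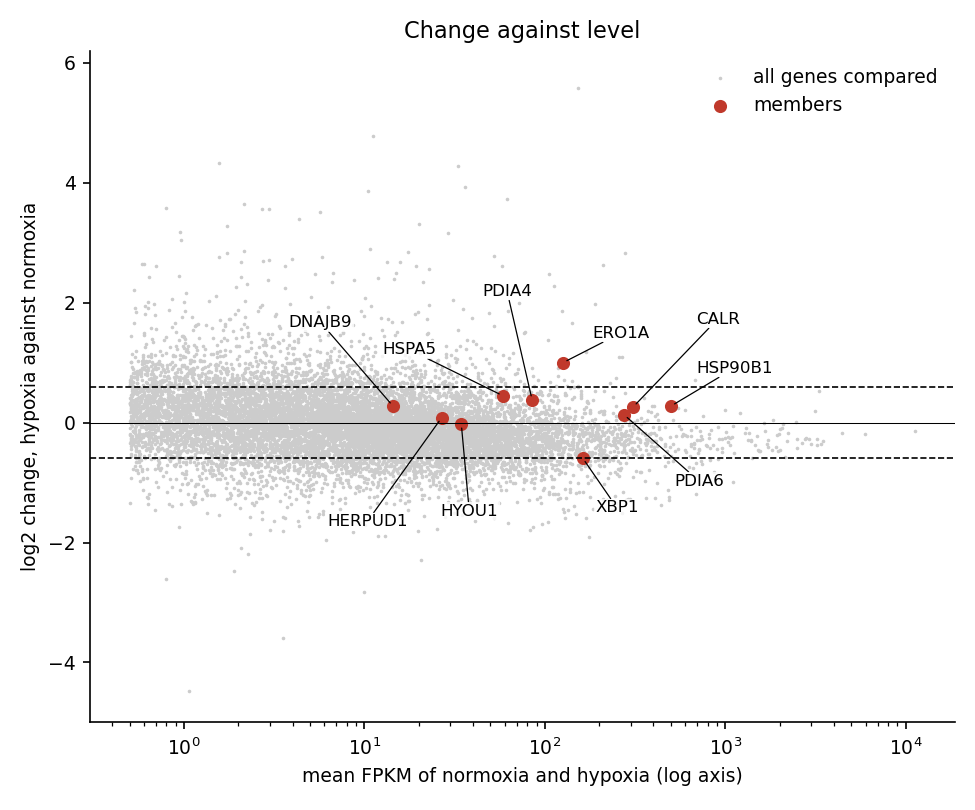
Log2 change from normoxia to hypoxia against the mean FPKM of both conditions (log axis) for the 12106 genes compared (grey points) and the 10 ER genes (red points), with dashed lines at 1.5-fold. ERO1A (1.00) lies above the upper line, XBP1 (-0.59) touches the lower one and the other 8 lie between them.

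Among other oxidases and peroxidases, QSOX1, which introduces disulfides directly into secreted proteins, was at 4.41 FPKM in normoxia and 15.4 in hypoxia, 3.43-fold higher (log2 change 1.78). PRDX4, a peroxidase that uses hydrogen peroxide to oxidise isomerases, was at 203 and 182 FPKM (-0.16). Of the 8 genes of this group that were compared, ERO1A and QSOX1 were past 1.5-fold higher and none was past 1.5-fold lower, with a median log2 change of 0.07.

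The isomerase-type genes of the ER differed less. PDIA4, an isomerase with several thioredoxin-like domains, was at 74.0 FPKM in normoxia and 96.1 in hypoxia, 1.30-fold higher (log2 change 0.38). PDIA6, a further isomerase of the ER lumen, was at 263 and 287 FPKM, a log2 change of 0.13. Nearly all of the PDIA6 signal came from NM_005742, with 99.4% of the summed FPKM in both conditions, and NM_001282707 was at 1.65 and 1.80 FPKM. Of the 16 isomerase-type genes compared, P4HB was past 1.5-fold higher and none was past 1.5-fold lower, and the median log2 change was 0.09. With equal sums or quantile normalization 2 were past 1.5-fold higher, and with only the top transcript of each gene 1 was past 1.5-fold lower. P4HB, the archetypal protein disulfide isomerase and also a subunit of collagen prolyl 4-hydroxylase, went from 68.5 to 105 FPKM (0.61). PDIA3, the partner of the lectin chaperones, was at 202 and 223 FPKM (0.14).

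The FPKM of ERO1A was equal to 7.68% of the sum over the 16 isomerase-type genes in normoxia and to 14.5% in hypoxia, which is 1.88-fold higher. Such a ratio within a condition is unchanged when a column is multiplied by a common factor, as with equal sums. Quantile normalization moves genes by different amounts and can change it. The sum takes in all compared genes of that list, and which of them ERO1A oxidises was not analysed here. The ratio of ERO1A to PDIA4 went from 1.14 to 1.75, that to PDIA6 from 0.321 to 0.586 and that to P4HB from 1.23 to 1.61. ERO1A was above PDIA4 and P4HB and below PDIA6 in both conditions.

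HSPA5, the ER Hsp70 and the usual reporter gene of ER stress, was at 49.5 FPKM in normoxia and 67.6 in hypoxia (NM_005347, chromosome 9, 127997127 to 128003666). It was 1.36-fold higher, a log2 change of 0.45. DNAJB9, a J-domain cofactor of BiP that represses IRE1, had the lowest level of the 10 genes, with 13.0 and 15.8 FPKM (0.27). HYOU1, an Hsp110-type nucleotide exchange factor of BiP whose name means hypoxia up-regulated, had 34.7 FPKM in normoxia against 34.2 in hypoxia. Its log2 change of -0.02 became positive, up to 0.20, with columns set to equal sums, centred on the median or quantile normalized. The ratio of HSPA5 to its exchange factor HYOU1 went from 1.43 to 1.98, and that of HSPA5 to DNAJB9 from 3.802 to 4.28. The signal of HYOU1 came almost entirely from NM_001130991, with 99.8% in normoxia and 99.3% in hypoxia, and NM_006389 lay below the limit at 0.0748 and 0.233 FPKM.

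Of the 14 genes of the ER Hsp70 system, none was past 1.5-fold higher and only SDF2L1 was past 1.5-fold lower. SDF2L1, a component of a complex with the J-domain protein DNAJB11, was at 4.31 and 2.40 FPKM (log2 change -0.82). DNAJB11 itself was at 92.8 and 72.9 FPKM (-0.35), and MANF, an ER-resident factor that binds BiP, was at 69.4 and 61.3 FPKM (-0.18). The signs of the DNAJB11 and SDF2L1 differences hold with an added shift of 0.23, and that of MANF turns. The median log2 change of the 14 was 0.01, and HSPA5 had the highest. With equal sums or quantile normalization 1 of the 14 was past 1.5-fold higher, and with a limit of 5 FPKM on the mean, which leaves out SDF2L1, none was past 1.5-fold lower.

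HSP90B1 had the highest level of the 10 genes, with 453 FPKM in normoxia and 548 in hypoxia (NM_003299, chromosome 12, 104324112 to 104341708). It was 1.21-fold higher, a log2 change of 0.28. CALR, which binds monoglucosylated glycoproteins and buffers calcium, was at 281 and 337 FPKM, 1.20-fold higher (0.26). None of the 11 GRP94 and lectin chaperone genes compared was past 1.5-fold in either direction, and 8 lay above 0, with a median of 0.26. The lectin chaperone calnexin (CANX) was not among the named genes and so was not compared. Past 1.5-fold higher were 3 of the 11 with equal sums, 3 with quantile normalization and 1 with centring. Of all genes, 18.3%, 11.6% and 12.4% were past 1.5-fold higher with these scalings. SELENOF, a selenoprotein that binds the glucosyltransferase UGGT1, was at 324 and 302 FPKM (-0.10).

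The cytosolic and mitochondrial relatives of these chaperones lay on the other side. Of 19 such genes compared, 7 were past 1.5-fold lower, none was past 1.5-fold higher and 17 lay below 0, with a median log2 change of -0.45. Over all genes, 11.2% were past 1.5-fold lower, 9.95% past 1.5-fold higher and 43.6% lay above 0, with a median of -0.07. Among all genes with a mean of at least 5 FPKM, 12.5% were lower, 6.26% higher and 35.6% above 0. With that limit, 7 of the list were past 1.5-fold lower. The cytosolic Hsp70 HSPA8 was not among the named genes and so was not compared. With columns scaled to equal sums the median of the 19 was -0.23 and 2 of them were past 1.5-fold lower. Over all genes the median was then 0.15, and 4.94% were past 1.5-fold lower. With quantile normalization the 19 had a median of -0.24 and 2 lower, against 0.015 and 8.44% over all genes. The cochaperone FKBP4 went from 89.7 to 44.4 FPKM (-1.01), the J-domain protein DNAJA2 from 128 to 72.3 (-0.82) and the mitochondrial Hsp70 HSPA9 from 405 to 233 (-0.80). The mitochondrial chaperonin HSPD1 was at 759 and 514 FPKM (-0.56) and the cytosolic Hsp90 HSP90AB1 at 754 and 587 (-0.36). The ratio of HSP90B1 to HSP90AB1 accordingly went from 0.6005 to 0.934, and that of HSPA5 to HSPA9 from 0.122 to 0.290. That of HSP90B1 to HSP90AA1, the stress-inducible cytosolic Hsp90, went from 0.761 to 0.998, so the ER Hsp90 reached nearly the same level as its cytosolic relative.

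In the plot of changes by gene list, the cytosolic and mitochondrial group is the one displaced furthest to the left. No difference between groups was tested, since each gene has 1 value per condition.

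**Figure D3:**
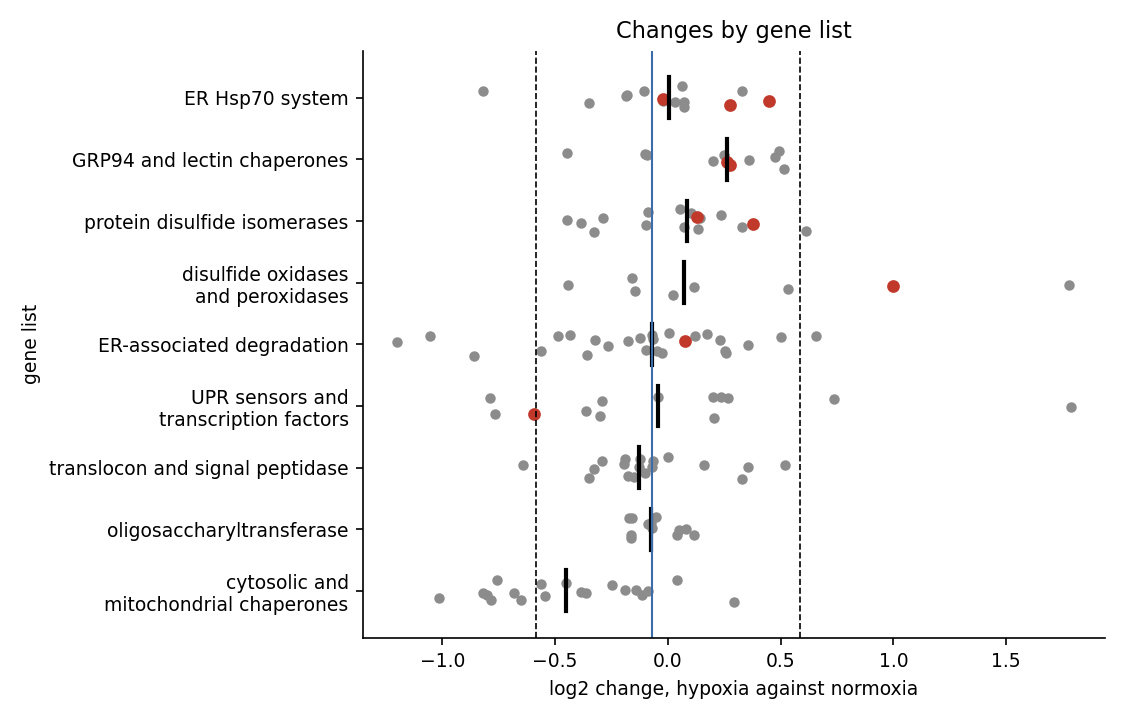
Log2 change from normoxia to hypoxia of each gene (1 point per gene, the 10 ER genes in red) in 8 lists of ER genes and in 1 list of cytosolic and mitochondrial chaperones, with black bars at list medians, a blue line at the median of all genes and dashed lines at 1.5-fold. The list medians run from -0.45 for cytosolic and mitochondrial chaperones to 0.26 for GRP94 and lectin chaperones.

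HERPUD1, a membrane protein of ER-associated degradation that returns misfolded proteins to the cytosol for the proteasome, was at 26.04 FPKM in normoxia and 27.5 in hypoxia (log2 change 0.08). Its main transcript NM_014685 held 92.9% of the gene total in normoxia against 91.7% in hypoxia. The other, NM_001010989, was at 1.84 and 2.27 FPKM (0.29). Of 26 degradation genes compared, SEL1L was past 1.5-fold higher and UBE2J2, AUP1 and UBE2G2 were past 1.5-fold lower, with a median of -0.07. With equal sums 2 were past 1.5-fold higher and the median was 0.16. SEL1L, the adaptor of the ubiquitin ligase HRD1, was at 22.9 and 36.2 FPKM (0.66). The ubiquitin-conjugating enzymes UBE2J2 and UBE2G2 were at 7.005 and 2.99 FPKM (-1.20) and at 21.2 and 11.6 FPKM (-0.86). AUP1, which recruits UBE2G2, was at 42.8 and 20.5 FPKM (-1.06). The segregase VCP was at 138 and 110 FPKM, and DERL2 at 73.1 and 64.7.

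XBP1, the transcription factor made from the IRE1-spliced mRNA, was the member with the largest difference in the other direction. Its summed level was 195 FPKM in normoxia and 129 in hypoxia (chromosome 22 of hg19, 29190548 to 29196560). It was 1.51-fold lower, a log2 change of -0.59, which is just past the limit. It stayed lower in each scaling, with a log2 change between -0.59 and -0.36.

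The 2 listed XBP1 transcripts differ by a 26-base segment that IRE1 removes, which lies inside exon 4 of the 5 exons of the unspliced mRNA and whose removal shifts the reading frame. It is shown because it is all that separates the spliced and unspliced mRNA within the coding part. The segment, in capitals, is at chr22:29192116-29192141 of GRCh37 on the minus strand and is given 5′ to 3′ with 20 bases on each side. The capitals mark the gap between the annotated exons. The gap starts with G and is followed by g, so moving it to start at the next base leaves an identical spliced mRNA. The exact bases at which IRE1 cuts cannot be read from the annotation.
XBP1 segment removed by IRE1: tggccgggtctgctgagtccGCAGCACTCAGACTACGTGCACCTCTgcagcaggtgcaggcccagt
In the annotation used, the unspliced model had 1850 exonic bases and the spliced one 1791, so further bases at the ends of the models also differ. The segment is 1.41% of the unspliced exonic bases.

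NM_001079539, the spliced form, was at 127 FPKM in normoxia and 87.9 in hypoxia (log2 change -0.54). NM_005080, the unspliced form, was at 67.7 and 41.4 FPKM (-0.71), past 1.5-fold lower. Both forms were thus lower, and the share of the spliced form was 65.3% in normoxia and 68.0% in hypoxia. Their ratio was 1.88 and 2.12. NM_005080 was the only one of the 13 member transcripts with a mean of at least 0.5 FPKM that was past 1.5-fold lower, and ERO1A NM_014584 the only one past 1.5-fold higher. Among all transcripts compared, 10.5% were past 1.5-fold higher and 14.3% past 1.5-fold lower. These shares are the authors' Cufflinks apportionment of fragments between models that overlap over nearly their whole length, and its uncertainty was not analysed here.

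**Figure D4:**
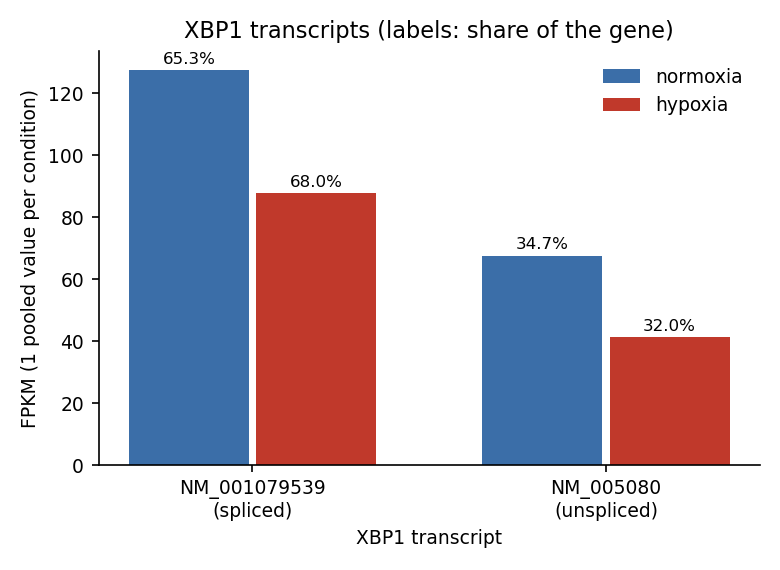
FPKM of the spliced (NM_001079539) and unspliced (NM_005080) XBP1 transcripts in normoxia (blue) and hypoxia (red), with 1 pooled value per bar and the share of the gene's summed FPKM above it. Both transcripts are lower in hypoxia and the spliced share is 65.3% against 68.0%.

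Of 13 sensors and transcription factors of the unfolded protein response compared, 2 were past 1.5-fold higher and 3 past 1.5-fold lower. WFS1, an ER membrane protein, was at 0.253 and 1.12 FPKM (log2 change 1.79) and ATF6B, a relative of ATF6, at 3.75 and 6.31 (0.74). Besides XBP1, the lower ones were ATF4, the main factor of the PERK branch, at 330 and 191 FPKM (-0.79) and its target DDIT3 (CHOP) at 48.6 and 28.6 (-0.76). TMBIM6, an inhibitor of IRE1 signalling, was at 557 and 643 FPKM. With columns scaled to equal sums none of the 13 was past 1.5-fold lower, so the calls of ATF4, DDIT3 and XBP1 were lost, and with quantile normalization 1 was past 1.5-fold lower and 3 past 1.5-fold higher. The median log2 change was -0.04, and it was 0.18 with equal sums and -0.30 with a limit of 5 FPKM on the mean. ERN1, the gene of IRE1 itself, lay below the limit at 0.339 and 0.278 FPKM. The ratio of HSPA5 to XBP1 went from 0.254 to 0.523, HSPA5 being higher and XBP1 lower.

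Genes that bring proteins into the ER and glycosylate them were mostly close to their normoxia level. Of 18 translocon and signal peptidase genes none was past 1.5-fold higher and SRPRB, a subunit of the signal recognition particle receptor, was past 1.5-fold lower at 42.1 and 26.9 FPKM (log2 change -0.64). The translocon subunit SEC61G was at 2725 and 3902 FPKM (0.52) and SEC61B at 267 and 218 (-0.29). With equal sums, centring or quantile normalization, 1 of the 18 was past 1.5-fold higher and none past 1.5-fold lower. The median was -0.13, and it became 0.10 with columns scaled to equal sums. None of the 12 oligosaccharyltransferase genes was past 1.5-fold, with a median of -0.07 that also turned positive with equal sums (0.15). Its small subunits OST4 and TMEM258 were at 340 and 319 FPKM and at 333 and 352 FPKM.

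Counting each gene of the 8 ER lists once, 117 were compared. Of these, 6 (5.13%) were past 1.5-fold higher and 8 (6.84%) past 1.5-fold lower, against 9.95% and 11.2% of all genes. The remaining 103 lay between, and the median log2 change was -0.05. Without the 10 genes followed here, 5 of 107 (4.67%) were past 1.5-fold higher and 7 (6.54%) past 1.5-fold lower, with a median of -0.07. Added together, the 10 genes had 1473 FPKM in normoxia against 1711 in hypoxia, which is 0.275% and 0.373% of all listed FPKM. The total itself was lower in hypoxia, at 458431 FPKM against 536005 in normoxia, which by itself raises the share of any set of genes.

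The promoters of these genes are shown for the elements through which the unfolded protein response and the hypoxia response are known to act. RefSeq windows of GRCh38.p14 from 250 bases before to 50 bases after the start were searched on both strands, and all 10 genes had a window. The ER stress response element (ERSE) was searched as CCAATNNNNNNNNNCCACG, which ATF6 and XBP1 bind with NF-Y, and ERSE-II as ATTGGNCCACG. The 5 promoters with an ERSE match are those of HSPA5, HSP90B1 (with 2 matches), CALR, PDIA6 and XBP1, and the matches are given with the defining letters in capitals.
HSPA5 ERSE: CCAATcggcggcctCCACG
PDIA6 ERSE: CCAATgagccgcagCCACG
HSP90B1 ERSE, upstream: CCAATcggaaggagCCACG
HSP90B1 ERSE, near the start: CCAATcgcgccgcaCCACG
CALR ERSE: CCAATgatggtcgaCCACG
XBP1 ERSE: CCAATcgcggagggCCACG
HERPUD1 ERSE-II: ATTGGgCCACG
HYOU1 ERSE-II, both matches: ATTGGaCCACG
An ERSE match was present in 27 of 35116 promoter windows (0.0769%) and an ERSE-II match in 19 (0.0541%). Of the 9671 genes compared that had a window, 15 held an ERSE and 15 an ERSE-II, and 5 and 2 of these are among the 10 genes. The matches of CALR and the one of HSP90B1 near the start lie on the strand opposite to the gene, as do both of HYOU1. PDIA4, DNAJB9 and ERO1A held neither sequence in these windows, which says only that these letters are absent there.

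The 5 genes with an ERSE did not share a direction. HSPA5, HSP90B1, CALR and PDIA6 had log2 changes from 0.13 to 0.45, and XBP1 had -0.59. HERPUD1 and HYOU1, with an ERSE-II, were at 0.08 and -0.02. Of the 30 genes compared with either element, 4 were past 1.5-fold higher and 5 past 1.5-fold lower, and the median log2 change was 0.02. Over all genes compared, 9.95% were past 1.5-fold higher and 11.2% lower, with a median of -0.07. Without the members of the group, 4 of 23 were past 1.5-fold higher (SYNPO, GYS1, NAV2 and NUCB1) and 4 past 1.5-fold lower (ALG12, SERP1, RUVBL2 and SDF2L1), with a median of -0.14. SERP1, which stabilises membrane proteins at the translocon and was picked out after its values were seen, was at 105 and 67.4 FPKM (-0.64), close to the difference of XBP1.

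The core of the hypoxia response element was searched only as ACGTG, so matches to other forms of the core were not counted. These letters are short and were present in 7518 of the windows (21.4%) and in 32.5% of the genes compared. ACGTG occurred in the windows of 8 of the 10 genes, all but HSPA5 and CALR. In HERPUD1 and HYOU1 some of its matches overlap an ERSE-II, and a palindromic CACGTG counts on both strands. In HYOU1, 1 match overlaps the element TGACGTGG (UPRE core, 0.729% of windows). The letters TTGCATCA of a C/EBP-ATF composite element occurred in 0.866% of windows and among the 10 genes in HERPUD1. ERO1A held 1 ACGTG match, from 114 to 110 bases before the start on the opposite strand, as did PDIA4 and XBP1 at other distances.

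**Figure D5:**
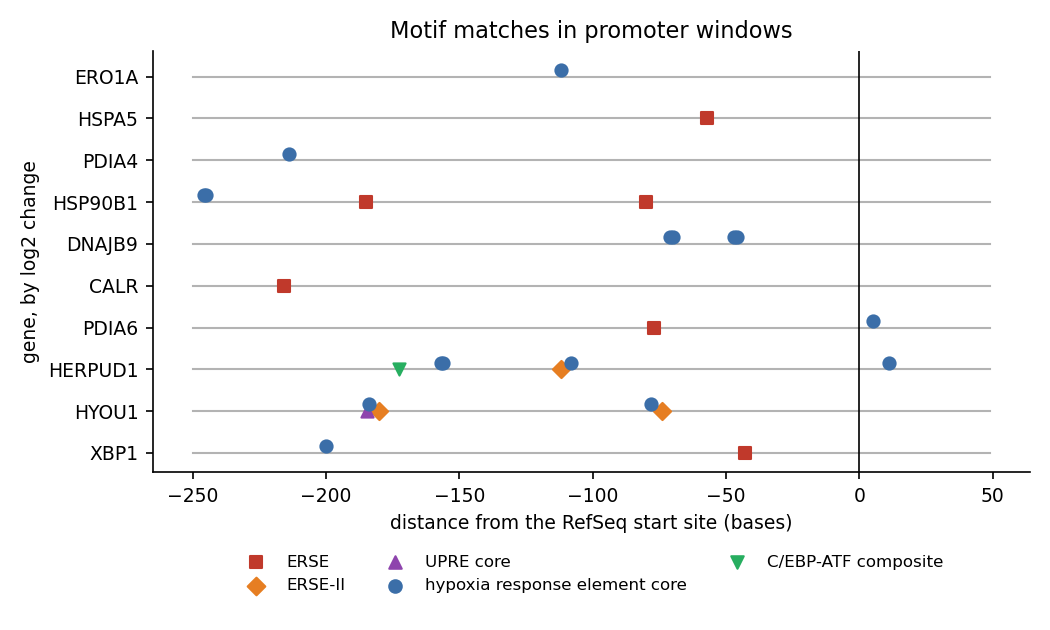
Positions of motif matches in the promoter windows of the 10 genes, in bases from the RefSeq start site, with genes ordered by log2 change from ERO1A at the top to XBP1 at the bottom. ERSE matches (squares) are seen in 5 promoters, ERSE-II matches (diamonds) in 2 and the hypoxia response element core (circles) in 8.

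The 250 bases before the start are given for the genes that differed most in each direction, ERO1A and XBP1, and for HSPA5 as the reference gene of ER stress. All are written 5′ to 3′ along the gene, which lies on the minus strand of GRCh38.p14. Capitals mark an ERSE by its defining letters, and CACGT, which is ACGTG on the opposite strand.
ERO1A, chr14:52695559-52695808: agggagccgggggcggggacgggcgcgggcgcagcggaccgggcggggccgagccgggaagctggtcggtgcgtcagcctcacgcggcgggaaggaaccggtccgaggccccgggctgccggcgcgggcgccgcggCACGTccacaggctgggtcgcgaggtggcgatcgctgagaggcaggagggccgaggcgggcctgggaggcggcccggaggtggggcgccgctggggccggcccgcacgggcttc
HSPA5, chr9:125241344-125241593: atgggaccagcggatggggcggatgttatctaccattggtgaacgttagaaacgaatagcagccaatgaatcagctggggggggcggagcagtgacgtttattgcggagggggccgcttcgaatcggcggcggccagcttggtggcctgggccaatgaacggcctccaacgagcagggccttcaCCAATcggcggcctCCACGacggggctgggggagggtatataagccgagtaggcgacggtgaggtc
XBP1, chr22:28800570-28800819: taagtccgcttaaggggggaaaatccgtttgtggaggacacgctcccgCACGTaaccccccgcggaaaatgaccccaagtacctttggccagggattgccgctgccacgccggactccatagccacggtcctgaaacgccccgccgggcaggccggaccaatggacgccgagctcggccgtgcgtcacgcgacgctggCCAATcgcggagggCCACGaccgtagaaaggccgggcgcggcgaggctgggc
The ERSE of HSPA5 lies 66 to 48 bases before the start and that of XBP1 52 to 34 bases before it. HSPA5 and XBP1 had log2 changes of 0.45 and -0.59, and a role of the element in either was not tested. Copies of the element with inexact letters were not counted.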

How the data were processed

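Poly(A)-selected RNA of SQ20B cells was sequenced from 8 samples, 4 in normoxia and 4 in hypoxia, grouped by their source label, with TruSeq stranded libraries. Per the submitters' processing notes the authors used STAR 2.3.0.1 and Cufflinks 2.1.1 with hg19, and Cuffdiff was run with RefSeq annotation. The deposited FPKM values are 1 per transcript and condition, pooled over the replicates. How Cuffdiff scaled the libraries to each other was not analysed here. The 4 columns of the authors' comparison (log2 fold change, test statistic, p-value and q-value) were not used. Depths of single samples were not analysed here, so no interval is given. Without values of single samples, limma could not be run, and the study calls the samples biological replicates.

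FPKM values were summed per gene. Symbols came from RefSeq of GRCh38.p14, matching 24293 of 24812 entries (97.9%). Of the identifiers 15 occurred more than once, none of them of the 10 genes. Changes are log2(FPKM + 0.1) in hypoxia minus normoxia, for means of at least 0.5 FPKM, and the added 0.1 understates changes of low genes. Genes past 1.5-fold were counted. Named are all members with their transcripts, in each list up to 3 genes with the largest change past 1.5-fold in each direction and the 2 of highest mean FPKM, and CA9. COL3A1, ERN1, ERO1B, HSP90AA1 and the genes with an ERSE match are named in addition, outside this rule and after their values were seen. CANX and HSPA8 are named only as genes without a value. The members and lists were chosen with earlier results of these data known. Other added values, limits, scalings and folds, and 1 transcript per gene, were tried. Steps were tested on simulated data. Promoters were RefSeq windows of GRCh38.p14, and the XBP1 segment came from GENCODE models on GRCh37. Python 3.11.15, numpy 2.4.6, pandas 2.3.3, scipy 1.17.1 and matplotlib 3.10.9 were used.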

Additional observations from a re-analysis of the deposited data

How the results depend on the processing

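The direction of 9 of the 10 genes was the same under each scaling and choice of transcript tried, and HYOU1 was the exception. The added values, limits and folds could not turn a direction. The choice of transcript could do so only for genes with more than 1 listed transcript. ERO1A was past 1.5-fold higher under each setting tried, with log2 changes between 0.91 and 1.25. The lowest was its change relative to the summed isomerases, an alternative chosen after the data were seen. XBP1 was past 1.5-fold lower with each added value and limit. Scaling to equal FPKM sums gave 3 genes higher (ERO1A, HSPA5 and PDIA4), 0 lower and a median log2 change of 0.49, and quantile normalization gave 4 higher (those and HSP90B1), 0 lower and a median of 0.50. Centring on the median gene, a fold of 2 and the use of the top transcript of each gene each left 0 lower. Of all genes, 18.3% were past 1.5-fold higher and 4.94% lower with equal sums, and 11.6% and 8.44% with quantile normalization. These shares were 12.4% and 8.76% with centring, and 10.1% and 11.8% with the top transcript of each gene. Equal sums and centring add the same shift to nearly all genes, while quantile normalization moved genes by different amounts, and the cause of its calls was not tested. Over all genes, 1204 were past 1.5-fold higher and 1361 lower, against 2221 and 599 with equal sums, 719 and 1031 with 1 FPKM added, 480 and 957 with a limit of 5 FPKM on the mean, and 388 and 317 at a fold of 2. With that limit, 33.4% of the genes past the limit were higher. Of 405 recomputed values, 328 moved by less than 0.1 on the log2 scale, by less than 5 percentage points as shares, or stayed within 1.5 times as counts, and the other 77 moved by more. Some of the 328 could not move, since the fold does not enter a log2 change and the 10 genes pass each FPKM limit. The tally is therefore no measure of robustness. No paired analysis was possible because each condition has 1 pooled value, and for the same reason no sample could be left out. Replicate spread and the depth of single samples were not analysed here, so differences near 1.5-fold, such as that of XBP1, carry no error.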

Other observations

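Lists of further ER genes were added after the data were seen. Of 8 ER prolyl isomerases and collagen chaperones compared, FKBP9 was past 1.5-fold higher, at 14.2 FPKM in normoxia and 22.2 in hypoxia (log2 change 0.65), and FKBP14 past 1.5-fold lower, at 13.1 and 8.48 FPKM (-0.62). The most abundant of them, the isomerases PPIB and FKBP2, were at 251 and 227 FPKM (-0.14) and at 53.2 and 47.0 FPKM (-0.18). The median of the group was -0.16.

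Of 13 ER calcium pumps, channels and binding proteins compared, 3 were past 1.5-fold higher. The calcium pump ATP2A2 (SERCA2) was at 15.4 and 23.7 FPKM (log2 change 0.62), the release channel ITPR2 at 6.08 and 10.1 (0.71) and the calcium-binding NUCB1 at 2.84 and 5.90 (1.03). The calcium-binding RCN2 was past 1.5-fold lower, at 124 and 81.3 FPKM (-0.61). SARAF, which regulates calcium entry, was at 108 and 121 FPKM, and the median of the group was 0.13. No difference between these groups was tested.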
